A study of Rattus norvegicus with 12 samples.

Results

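The genes described here are feedback phosphatases of the MAP kinase pathway, the Sprouty group and a Ras GTPase-activating protein: Dusp1, Dusp4, Dusp5, Dusp6, Spry1, Spry2, Spry4, Spred1 and Rasa1. They were followed in rat retinal ganglion cells that had been exposed to endothelin peptides. Members were the probe sets whose only annotated gene symbol was one of these 9 names. This gave 12 probe sets for 8 of the 9 genes, out of 14217 genes with a probe set of their own. Spred1 had no such probe set and was not analysed here. The cells were isolated from Sprague-Dawley rat pups of postnatal day 4 to 6 by panning on antibody to Thy-1 and were grown for 7 days in serum-free medium with BDNF at 50 ng/mL, CNTF at 10 ng/mL and forskolin at 5 ng/mL. All cultures, controls included, then went overnight without these trophic factors before exposure to ET-1, ET-2 or ET-3 at 100 nM for 24 h. Titles name the controls untreated, and descriptions name them vehicle. There were 3 arrays in each of the 4 groups (Affymetrix Rat Genome 230 2.0), numbered as biological replicates 1 to 3, and the labels do not say what the numbers stand for beyond that. The cells came from pups of a few days of age and were enriched for ganglion cells in culture, without the retina around them. Markers of other cell types, fibroblasts among them, were also above the median signal, as given below.

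The RAF, MEK and ERK kinases form a relay that carries signals from receptors to the nucleus, and G protein-coupled receptors such as those for endothelin can feed into it. The pathway is held in check by genes of several kinds, some of which its own output can induce. Dual-specificity phosphatases remove the activating phosphates from ERK, p38 and JNK, Sprouty and Spred proteins act upstream at the step from receptor to Ras and Raf, and Rasa1 encodes a GTPase-activating protein that turns Ras off. In neurons, Dusp1 and Dusp6 are known as transcripts that respond to activity and to growth factors.

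Among the members, only the Dusp1 probe set 1368146_at rose past the test, by 0.27 ± 0.05 (log2 difference ± SE) in the mean of the 3 endothelins over untreated, a fold of 1.21. It passed with ET-2 and ET-3 and missed with ET-1. The Dusp5, Dusp6, Spry1, Spry2, Spry4 and Rasa1 probe sets did not pass in any comparison with untreated. No member fell past the test. Differences are in log2 MAS5 signal (Affymetrix's summary of the probes of a set), each array compared with the untreated array of the same replicate number in a limma fit with the number as a block, over 15521 probe sets with a mean log2 signal at or above the median of 7.20. A call is an adjusted p (Benjamini-Hochberg over these probe sets, two-sided) under 0.05, and n = 3 arrays a group throughout.

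The arrays differed far more by replicate number than by treatment. Same-numbered arrays of different groups deviated together in each of 18 pairs (correlation of deviations from the group means 0.684 to 0.912). Of the markers that identify the cultured cells, the 10 retinal ganglion cell markers with a probe set were all above the median signal. Their summed signal was 71374 to 75652 on replicate 1, 85560 to 94594 on replicate 2 and 104199 to 115940 on replicate 3. Fibroblast markers (5 of 5 above the median) summed to 43233 to 48855 on replicate 1 and to 6284 to 9921 on the arrays of the other replicates. With ET-2, 1 of these 5 fell past the test, beside 0.322% lower over all tested probe sets. None of the 4 endothelial, 2 photoreceptor or 1 bipolar cell markers with a probe set was above the median, while 3 of 3 amacrine cell, 4 of 5 microglial and 2 of 6 astrocyte and Mueller glial markers were. Their sums over all arrays were 849 to 1752, 1108 to 2475 and 1789 to 2326. In RNA from a whole culture, fewer cells of a type and less RNA per cell cannot be told apart.

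**Figure D1:**
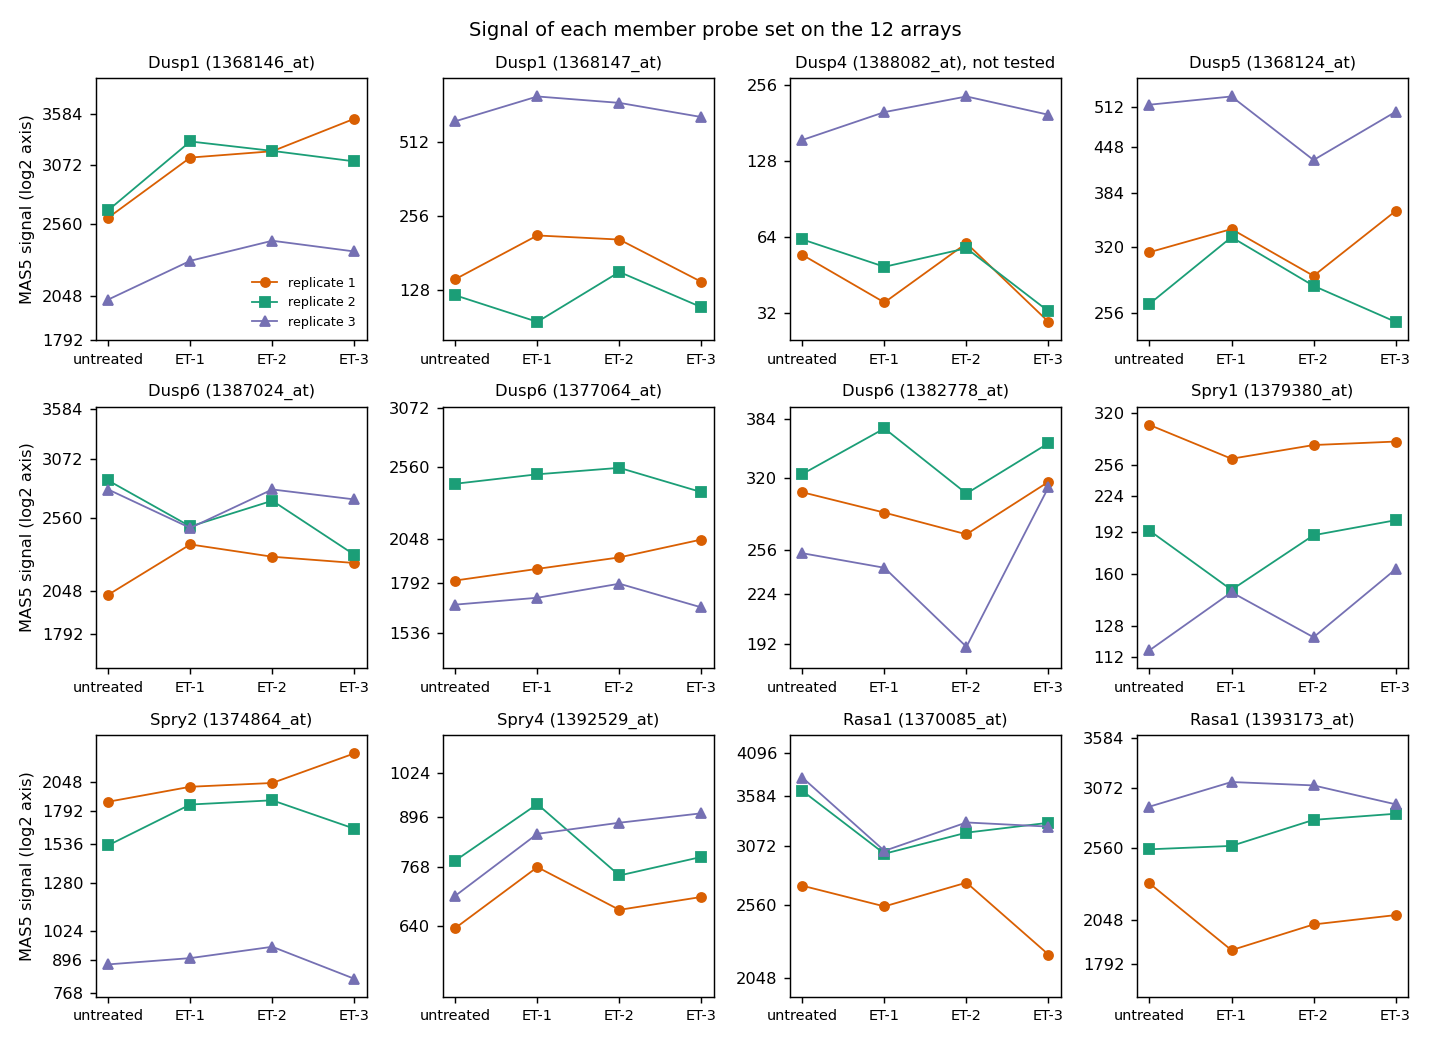
MAS5 signal (log2 axis, arbitrary units, a separate range in each panel) of the 12 member probe sets on the 12 arrays, by group on the horizontal axis, with lines joining the arrays of 1 replicate number. Dusp1 (1368146_at) is above its untreated array at each endothelin in each replicate, while in most panels replicate 3 or replicate 1 lies apart from the others whatever the treatment.

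Dusp1 encodes a nuclear phosphatase that acts on p38, JNK and ERK and is induced quickly by stress and by mitogens. On 1368146_at the untreated signals were 2609, 2669 and 2028 for replicates 1 to 3. With ET-1 they were 3138, 3298 and 2285. With ET-2 they were 3200, 3204 and 2430, and with ET-3 they were 3537, 3102 and 2351. Every endothelin array was above the untreated array of its own number, in 9 of 9 differences, while the groups as such overlapped because all 4 arrays of replicate 3 (2028 to 2430) were below all others (2609 to 3537). The log2 difference was 0.25 with ET-1 (95% interval 0.12 to 0.38, limma adjusted p = 0.0598), 0.27 with ET-2 (0.14 to 0.40, adjusted p = 0.0430) and 0.29 with ET-3 (0.16 to 0.42, adjusted p = 0.0243). For the mean of the 3 endothelins the interval was 0.16 to 0.38 and the limma adjusted p was 0.00806. These comparisons share the same 3 untreated arrays.

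The number of members called has to be read against the whole array. With ET-2, 1 of 11 tested member probe sets was higher, where 1.28% of all tested probe sets were higher and 0.322% lower. With ET-3, 1 of 11 was higher, beside 2.13% higher and 0.509% lower over all. With ET-1, 0 of 11 were called, beside 1.51% higher and 0.219% lower, and 3 of 11 had an unadjusted limma p under 0.05, where 2400 of the 15521 probe sets did. For the mean of the endothelins, 1 of 11 was higher, beside 3.54% higher and 1.35% lower. With 11 probe sets, 1 call is too few to tell the share of members from these shares. The median member difference was 0.04, 0.03 and 0.04 for ET-1, ET-2 and ET-3, and that of all tested probe sets was -0.03, -0.02 and -0.03.

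The Dusp1 1368146_at call rests on comparing arrays within a replicate number. Without the replicate block the mean difference was the same, the unadjusted limma p was 0.12, and no probe set of the 15521 was called for any endothelin. At an unadjusted p under 0.05 that fit had 237 probe sets for ET-1, 223 for ET-2, 297 for ET-3 and 397 for the mean, none of them a member. Dusp1 was no longer called for the mean of the endothelins without the untreated array of replicate 1 (adjusted p = 0.0540), without replicate 1 (0.0726) or without replicate 2 (0.0766), and it was called in the other 12 of 15 fits that left out arrays (adjusted p 0.00973 to 0.0766 over the 15). With ET-2 it was called in 2 of the 15 (without untreated replicate 3 or without ET-3 replicate 1; adjusted p 0.0332 to 0.202), and with ET-1 in 1 (without ET-3 replicate 1). With ET-3 it was called in 7, and lost without untreated replicate 1 or 2, without any 1 of the ET-3 arrays and without any 1 of the replicate numbers (adjusted p 0.0249 to 0.251).

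The summed signal of pericyte and smooth muscle markers was higher with endothelin on the same arrays as Dusp1. All 5 had a probe set and 3 were above the median signal. Their summed signal was 3556 to 5959 in untreated arrays, 6932 to 9750 with ET-1, 6832 to 7773 with ET-2 and 8184 to 9371 with ET-3. The smooth muscle gene Tagln made up 76.1% to 84.3% of the sum on each array, and the other 4 markers summed to 848 to 957 in untreated arrays and 1274 to 1745 with an endothelin. The pericyte marker Rgs5, below the median, did not follow (19.7, 30.1 and 37.4 untreated, 19.3 to 56.9 with an endothelin). Within a replicate number the log2 ratio of that sum to untreated ran from 0.36 to 1.20. Of the 3 markers tested, 2 rose past the test with ET-1, 2 with ET-2 and 3 with ET-3. Over all tested probe sets 1.51%, 1.28% and 2.13% were higher with these peptides. The part of these markers in the Dusp1 difference was not tested.

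The other Dusp1 probe set, 1368147_at, did not follow the first. Its mean was at the 58.5th percentile of all probe sets, where that of the first was at the 95th. On replicates 1 and 2 its signals, 94.7 to 213, lay on both sides of the filter's median signal of 147. Its untreated signals were 141, 121 and 622, those with ET-1 213, 94.7 and 785, those with ET-2 205, 151 and 739, and those with ET-3 138, 109 and 647. Replicate 3, the lowest number on the first probe set, was the highest here (622 to 785, against 94.7 to 213), and the log2 signals of the pair correlated at r = -0.80 over the 12 arrays. With each replicate's mean removed, r was 0.10. The mean difference was 0.17 ± 0.14 (SE; limma adjusted p = 0.522), with 6 of 9 differences upward. The 95% interval, -0.14 to 0.48, includes the value of the first probe set.

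The sequence just upstream of Dusp1 is shown because this was the member that passed, with that of Dusp5 beside it as another inducible nuclear phosphatase that did not. Both are the 250 bases before the RefSeq gene start, on the plus strand of assembly GRCr8, at chr10:17184603-17184852 for Dusp1 and chr1:262543524-262543773 for Dusp5, outside the annotated span of each gene. Capitals mark matches to the motifs searched on both strands.
Dusp1: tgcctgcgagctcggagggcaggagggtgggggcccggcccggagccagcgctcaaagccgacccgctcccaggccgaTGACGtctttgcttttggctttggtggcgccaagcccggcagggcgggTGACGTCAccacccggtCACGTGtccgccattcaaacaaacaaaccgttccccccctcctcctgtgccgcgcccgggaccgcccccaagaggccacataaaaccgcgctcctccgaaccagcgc
Dusp5: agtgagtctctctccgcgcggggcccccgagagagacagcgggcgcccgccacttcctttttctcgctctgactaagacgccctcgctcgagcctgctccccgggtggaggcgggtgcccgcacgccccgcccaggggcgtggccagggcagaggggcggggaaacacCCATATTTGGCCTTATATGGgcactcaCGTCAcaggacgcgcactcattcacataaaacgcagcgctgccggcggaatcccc
The Dusp1 window holds the full cyclic AMP response element TGACGTCA 124 to 117 bases before the start. This octamer is present in 1.587% of the 33469 promoter windows of this length. It also holds its core TGACG once more, 172 to 168 bases before the start (18.217% of windows, each full element counting as core too), and an E-box CACGTG at 107 to 102 (5.593%). The Dusp5 window holds a pair of adjoining CArG boxes, the motif known to bind serum response factor, at 82 to 73 and 72 to 63 bases before the start (1.497% of windows hold at least 1 such box), and 1 core TGACG on the other strand at 55 to 51. Neither window has a match to AP-1 (TGANTCA, 6.34%), ETS (CCGGAA, 12.603%) or the TATA box (TATAAA, 12.931%). These matches describe the letters of the windows and say nothing of binding.

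RefSeq windows were found for 8 of the 9 genes. The Spry2 window outside its gene, at chr15:89111927-89112176 on the minus strand, has 1 core TGACG at 219 to 215 bases before the start and 1 ETS match at 171 to 166. The Spry4 window has 1 ETS match at 81 to 76. The Spred1 window, outside its gene, has no match to these motifs. The Dusp6, Spry1 and Rasa1 windows and another Spry2 window, at chr15:89109843-89110092, have no match either. These windows overlap the annotated span of their genes, so they are not like the Dusp1 and Dusp5 windows.

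Dusp4 encodes another nuclear phosphatase of ERK and JNK. Its probe set 1388082_at had signals of 54.2, 62.4 and 155 in untreated arrays, 35.1, 48.6 and 199 with ET-1, 60.2, 57.5 and 230 with ET-2, and 29.4, 32.4 and 194 with ET-3. Its mean was at the 37.9th percentile of all probe sets, below the filter, so it was not tested. Replicate 3 (155 to 230) was above the other replicates (29.4 to 62.4) in every group. The endothelin arrays were higher than untreated in 4 of 9 differences.

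Dusp5, a nuclear phosphatase selective for ERK, gave no call. On 1368124_at the untreated signals were 314, 264 and 517, those with ET-1 340, 331 and 531, those with ET-2 290, 281 and 429, and those with ET-3 361, 248 and 504. The groups overlapped, and replicate 3 (429 to 531) was again above the others (248 to 361). The log2 difference was 0.16 with ET-1, -0.10 with ET-2 and 0.03 with ET-3, and for the mean 0.03 (95% interval -0.18 to 0.24, limma adjusted p = 0.898).

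Dusp6 encodes the cytoplasmic phosphatase that is specific for ERK, and it had 3 probe sets, none of which passed. On 1387024_at the untreated signals were 2023, 2875 and 2797, and the endothelin arrays lay between 2231 and 2797, inside that range. On 1377064_at the signals were 1805, 2431 and 1676 untreated, 1871, 2502 and 1712 with ET-1, 1938, 2552 and 1787 with ET-2, and 2047, 2369 and 1662 with ET-3. The mean differences were -0.03 (95% interval -0.18 to 0.11) and 0.06 (-0.05 to 0.16). For these probe sets the intervals for the mean of the endothelins bound a change at 1.12-fold upward and 0.88-fold downward.

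The third Dusp6 probe set, 1382778_at, had signals of 306, 324 and 254 untreated, 287, 372 and 243 with ET-1, 269, 305 and 190 with ET-2, and 316, 356 and 311 with ET-3. Every ET-3 array was above every ET-2 array, with a difference of 0.39 (95% interval 0.11 to 0.66). Its unadjusted limma p was 0.0093 and its adjusted p 0.999, so it did not pass. Within replicate numbers the Dusp6 probe sets did not move together, with r of 0.35, -0.34 and -0.41 for the 3 pairs over 12 arrays.

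**Figure D2:**
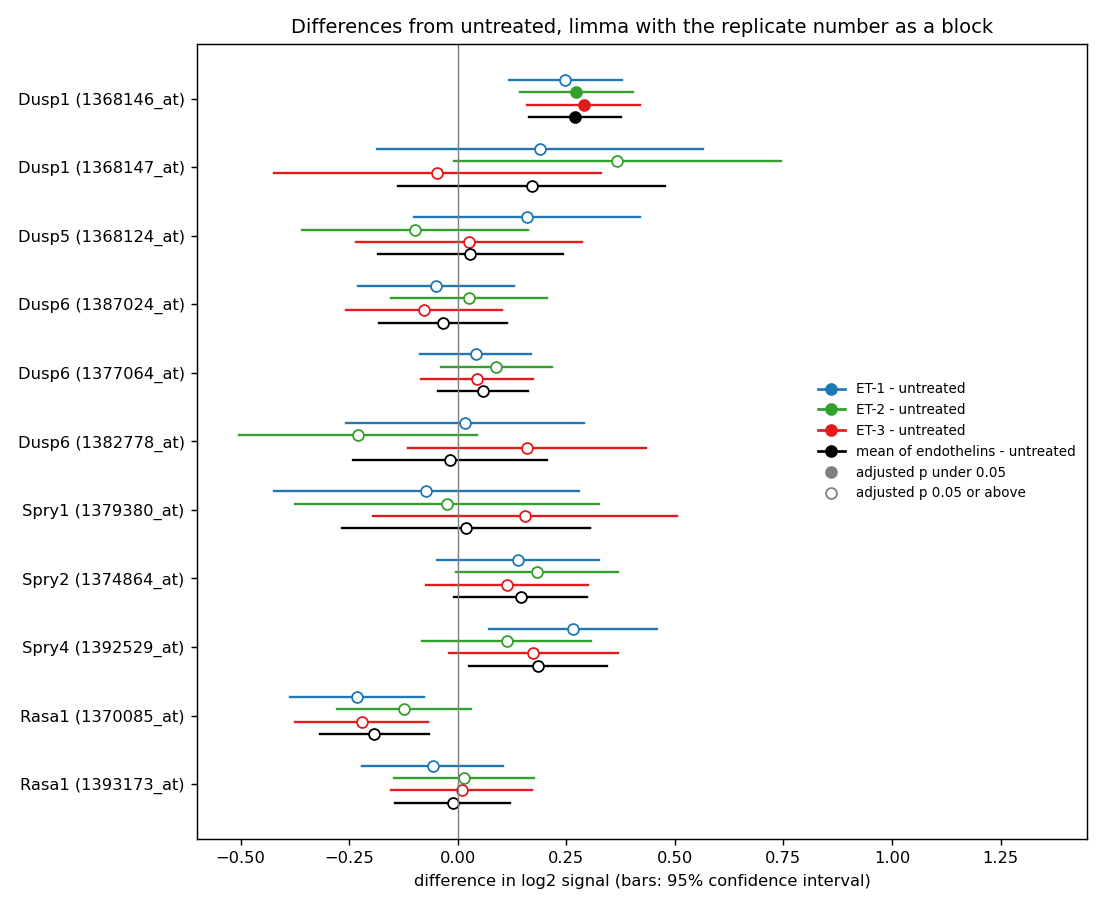
Log2 difference from untreated (horizontal axis, log2 MAS5 signal) of the 11 tested member probe sets for ET-1, ET-2, ET-3 and their mean, each point with its 95% interval from the limma fit. Filled points passed an adjusted p of 0.05: Dusp1 1368146_at with ET-2, ET-3 and the mean.

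Sprouty proteins are inhibitors of receptor tyrosine kinase signalling to Ras and ERK, and none of the 3 measured passed. Spry4 came nearest. On 1392529_at its untreated signals were 636, 783 and 702, those with ET-1 767, 931 and 850, those with ET-2 672, 747 and 879, and those with ET-3 700, 791 and 905. The endothelin arrays were above untreated in 8 of 9 differences, the exception being ET-2 in replicate 2, and the groups overlapped. The difference was 0.27 with ET-1 (95% interval 0.07 to 0.46, limma adjusted p = 0.185), 0.11 with ET-2, 0.17 with ET-3 and 0.18 for the mean (0.03 to 0.34, adjusted p = 0.169).

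Spry2 (1374864_at) had signals of 1867, 1525 and 877 untreated, 2002, 1843 and 903 with ET-1, 2037, 1880 and 952 with ET-2, and 2337, 1648 and 820 with ET-3. Replicate 3 was lowest in every group (820 to 952, against 1525 to 2337), and 8 of 9 differences were upward, all but ET-3 in replicate 3. The difference was 0.14, 0.18 and 0.11 for ET-1, ET-2 and ET-3, and 0.14 for the mean (95% interval -0.01 to 0.30, limma adjusted p = 0.252).

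Spry1 (1379380_at) had signals of 304, 193 and 115 untreated, 263, 150 and 148 with ET-1, 278, 189 and 122 with ET-2, and 283, 202 and 163 with ET-3. Replicate 1 (263 to 304) was above the others (115 to 202) in every group. The mean difference was 0.02 with a wide interval of -0.27 to 0.31, and 4 of 9 differences were upward.

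Rasa1, the Ras GTPase-activating protein, had the only member probe set whose interval for the mean of the endothelins lay below 0. On 1370085_at the untreated signals were 2720, 3640 and 3792, those with ET-1 2552, 3001 and 3027, those with ET-2 2746, 3201 and 3304, and those with ET-3 2200, 3300 and 3262. The endothelin arrays were below untreated in 8 of 9 differences, all but ET-2 in replicate 1, and the groups overlapped. The difference was -0.23 with ET-1 (limma adjusted p = 0.140), -0.12 with ET-2 (0.414), -0.22 with ET-3 (0.124) and -0.19 for the mean (95% interval -0.32 to -0.07, adjusted p = 0.0792), none of which passed. After median centring of the arrays the mean difference of Rasa1 1370085_at was -0.25 and passed (limma adjusted p = 0.0383). Centring lowers this difference by the same 0.06 for every probe set. Lower calls in the mean then numbered 1066 of 15521 probe sets, in place of 209. Without centring, the adjusted p of Rasa1 1370085_at ran from 0.0625 to 0.271 over the fits that left out arrays.

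The other Rasa1 probe set, 1393173_at, did not show this difference. Its signals were 2293, 2546 and 2903 untreated, 1867, 2573 and 3132 with ET-1, 2021, 2788 and 3099 with ET-2, and 2080, 2840 and 2924 with ET-3. The mean difference was -0.01 (95% interval -0.14 to 0.12) and 6 of 9 differences were upward. The Rasa1 probe sets correlated at r = 0.75 over the 12 arrays, but at -0.12 once each replicate's mean was removed.

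The endothelins were then compared with each other at their matched dose and time. ET-1 and ET-2 are known as ligands of both endothelin receptors, and ET-3 as one that prefers the B receptor. Over 3 pairs of peptides and 11 probe sets there were 33 comparisons, and 0 passed, beside 0% of all 15521 probe sets in either direction. At an unadjusted limma p under 0.05 there were 574 probe sets for ET-2 against ET-1, 347 for ET-3 against ET-1 and 583 for ET-3 against ET-2. For Dusp1 1368146_at the differences were 0.03 for ET-2 minus ET-1 (95% interval -0.11 to 0.16), 0.04 for ET-3 minus ET-1 (-0.09 to 0.17) and 0.02 for ET-3 minus ET-2 (-0.11 to 0.15).

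Intervals off 0 were seen for 2 of the 33. These were ET-3 minus ET-2 on Dusp6 1382778_at, given above, and on Dusp1 1368147_at (-0.41, 95% interval -0.79 to -0.04). Across the 33 comparisons the widest interval reached a 1.73-fold difference, so the data do not show that the peptides act alike on these genes.

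For most members the replicate number accounted for the larger part of the variance of the log2 signal. Its share was 95.9% for Spry2, 95.7% for Dusp1 1368147_at, 94.9% for Dusp6 1377064_at, 88.2% for Spry1 and 87.4% for Dusp5, where the median over all tested probe sets was 68.7%. For Dusp1 1368146_at the replicate number took 72.8% and treatment 23.3%, which left 3.86% unexplained. Treatment also took 32.7% for Spry4, 30.4% for Dusp6 1382778_at and 19.3% for Rasa1 1370085_at, against a median of 10.4%. This share is over the 4 groups, so differences between the peptides enter it. On Dusp6 1382778_at the mean of the endothelins differed from untreated by -0.02 (95% interval -0.24 to 0.21). The replicates differed in opposite directions between genes. Replicate 3 was lowest for Spry2 and Dusp1 1368146_at but highest for Dusp4 and Dusp5, and replicate 1, with the highest fibroblast sum, was highest for Spry1 and lowest for both Rasa1 probe sets.

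**Figure D3:**
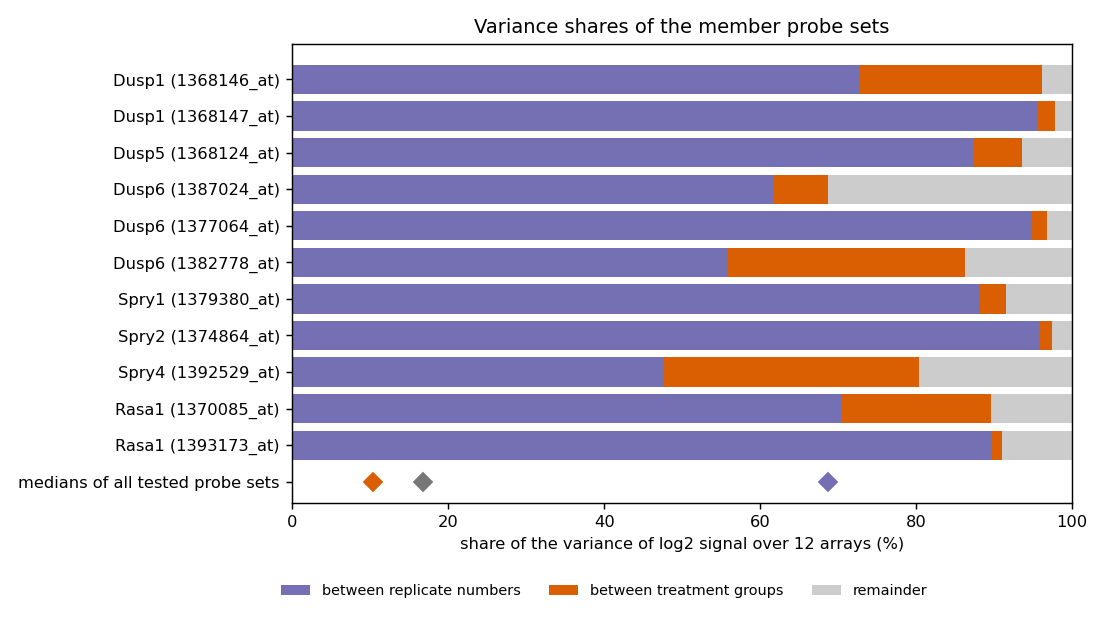
Share of the variance of log2 MAS5 signal over the 12 arrays (horizontal axis, percent) that lies between replicate numbers, between treatments and in the rest, for the 11 tested member probe sets and as the median over all tested probe sets. Replicate number takes the largest share for each member, from 47.7% for Spry4 to 95.9% for Spry2.

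With each replicate's mean removed, the pattern of Dusp1 1368146_at over the 12 arrays was nearest to those of Cnn1 (Pearson r = 0.98), Arpc2 (0.97) and Sqor (0.96). Cnn1 encodes calponin, an actin-binding protein of smooth muscle, and Arpc2 a subunit of the actin-nucleating Arp2/3 complex. The nearest to Spry4 were Gmppb (0.94), Ptcd3 (0.93) and Eaf1 (0.91), and to Spry2 Pak1ip1 (0.93), Dyrk1a (0.91) and Thap12 (0.91). The nearest to Rasa1 1370085_at were Bclaf1 (0.94), Tceal9 (0.94) and Nr1d2 (0.93), to Dusp6 1387024_at Ankh (0.95), Atp5pb (0.91) and Phf5a (0.91), to Spry1 Setd4 (0.94), Orai3 (0.88) and Atp23 (0.87), and to Dusp5 Cnst (0.90), Lipt2 (0.90) and Trmt12 (0.89). Among the members themselves, Dusp1 1368146_at had r = 0.78 with Spry2, 0.60 with Spry4 and -0.78 with Rasa1 1370085_at. It had 0.23 with Dusp5, -0.01 with Dusp6 1387024_at and -0.13 with Spry1. Group means were not removed, so the differences from untreated given above enter all these values. These values describe 12 arrays that share 3 replicate numbers, and each named gene that is no member is among the highest out of all tested genes.

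The rest of the pathway was described from lists of genes by role, with 1 probe set a gene. Among the other MAP kinase phosphatases, 3 of 6 genes were tested and none passed. Dusp8, a phosphatase of JNK and p38, had a mean difference of 0.25 ± 0.10 (SE; limma adjusted p = 0.185), Dusp7, of the ERK-specific class, 0.14 ± 0.07, and Dusp2, a nuclear phosphatase, -0.08 ± 0.12. Of the atypical dual-specificity phosphatases 10 of 11 were tested and none passed, with Dusp26 at -0.13 ± 0.04, Dusp11 at 0.36 ± 0.14, Dusp18 at -0.22 ± 0.09 and Dusp3 at -0.12 ± 0.07. Of a list of other feedback genes of the pathway 13 of 24 were tested and none passed. The EGF receptor inhibitor Errfi1 was at 0.24 ± 0.10 and the ETS repressor Erf at 0.25 ± 0.15. The neuronal tyrosine phosphatase Ptpn5 was at -0.13 ± 0.05 and the related Ptprr at -0.12 ± 0.07.

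Of the relay from adaptor proteins through Ras to ERK, 20 of 29 genes were tested. In the mean 2 were higher and 0 lower, beside 3.54% higher and 1.35% lower over all tested probe sets. The shares for single peptides are those given for the members. Rras, a small GTPase related to Ras, rose with each peptide, by 0.58 with ET-1, 0.46 with ET-2 and 0.65 with ET-3 (SE 0.09; limma adjusted p = 0.00767, 0.0335 and 0.00427). Of the 15 fits that left out arrays, these calls held in 12 for ET-1, 4 for ET-2 (adjusted p up to 0.322) and 13 for ET-3. Its untreated signals of 539, 522 and 413 compare with 487 to 911 on the endothelin arrays. The adaptor Shc1 rose with ET-3 (0.52 ± 0.12, limma adjusted p = 0.0460) and in the mean (0.39 ± 0.10, adjusted p = 0.0458). The other 18 did not pass, with Grb2 at -0.09 ± 0.05 and the ribosomal S6 kinase Rps6ka3 at -0.13 ± 0.08 in the mean. In the p38, JNK and ERK5 cascades 11 of 18 were tested, with 1 higher and 0 lower in the mean, beside the same shares. Mapkapk2, the kinase downstream of p38, rose with ET-3 (0.62 ± 0.12, limma adjusted p = 0.0163) and in the mean (0.49 ± 0.10, adjusted p = 0.0124). The kinase Map2k3, which activates p38, (0.31 ± 0.10) and the JNK kinases Mapk8 (-0.14 ± 0.05) and Mapk9 (-0.16 ± 0.07) did not pass in the mean. Over the 15 fits that left out arrays, the call in the mean was kept in 15 for Rras, 12 for Mapkapk2 (lost without untreated replicate 1, replicate 1 or replicate 2) and 3 for Shc1, and the call with ET-3 in 9 for Mapkapk2 and 3 for Shc1.

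Of 17 listed transcripts that ERK activity is known to raise, 13 were tested, and 3 passed upward with ET-1, 1 with ET-2, 2 with ET-3 and 4 in the mean. None passed downward. The background shares for each comparison are those given with Dusp1. The median difference of the 13 was 0.31 in the mean of the endothelins, where all tested probe sets had a median of -0.03, and 8 of the 13 were above 0 and 5 below. The list was chosen with earlier results of these data known, so these medians only describe it. Egr1, an immediate early transcription factor, had untreated signals of 1822, 807 and 1121. With ET-1 its signals were 3644, 1912 and 1256, a rise of 0.80 ± 0.17 (SE; limma adjusted p = 0.0324).

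The other transcripts of that list that passed were Ccnd1, Ier3 and Fosl1. Ier3, an early response gene, rose by 0.83 ± 0.18 with ET-1 (limma adjusted p = 0.0324) and 0.77 with ET-3 (0.0391). Ccnd1, which encodes cyclin D1, rose by 0.84 ± 0.17 with ET-1 (adjusted p = 0.0271) and 0.79 with ET-2 (0.0409). Fosl1, an AP-1 subunit, rose in the mean only (0.97 ± 0.24, adjusted p = 0.0354), from 118, 144 and 392 untreated to 223 to 476. The call in the mean was kept in 14 of the 15 fits that left out arrays for Ccnd1 (lost without replicate 2), 13 for Ier3 (lost without replicate 1 or 2), 11 for Egr1 (lost without untreated replicate 1 or 2, or without replicate 1 or 2) and 4 for Fosl1. The calls of single peptides held less widely over these 15 fits. They were kept in 10 (ET-1) and 4 (ET-2) for Ccnd1, in 7 (ET-1) and 4 (ET-3) for Ier3, and in 8 (ET-1) and 5 (ET-3) for Egr1. The difference between this list and the members was not tested.

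Of the receptors upstream of Ras, 8 of 12 were tested and the genes of both endothelin receptors were not analysed here. In the mean 2 of the 8 were higher and 2 lower, beside 3.54% higher and 1.35% lower over all tested probe sets. Fgfr2 rose with each peptide (0.87, 0.81 and 0.78, SE 0.14). Pdgfrb, a receptor that also marks pericytes, rose with ET-3 (1.09 ± 0.24, limma adjusted p = 0.0310) and in the mean (1.02 ± 0.19). Kdr, a VEGF receptor, fell with ET-2 (-0.74 ± 0.17, adjusted p = 0.0481). In the mean Kdr was at -0.58 ± 0.14 (adjusted p = 0.0304) and Ntrk2, the receptor for BDNF, at -0.21 ± 0.05 (adjusted p = 0.0428). The call in the mean was kept in 15 of 15 fits that left out arrays for Fgfr2, 13 for Pdgfrb (lost without untreated replicate 1 or without replicate 1), 8 for Kdr and 1 for Ntrk2. Among single peptides, the calls held in 13, 11 and 11 of them for Fgfr2 with ET-1, ET-2 and ET-3, in 8 for Pdgfrb with ET-3 and in 2 for Kdr with ET-2 (adjusted p up to 0.249). All calls of these lists are from the fit with the replicate block, without which no probe set passed.

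**Figure D4:**
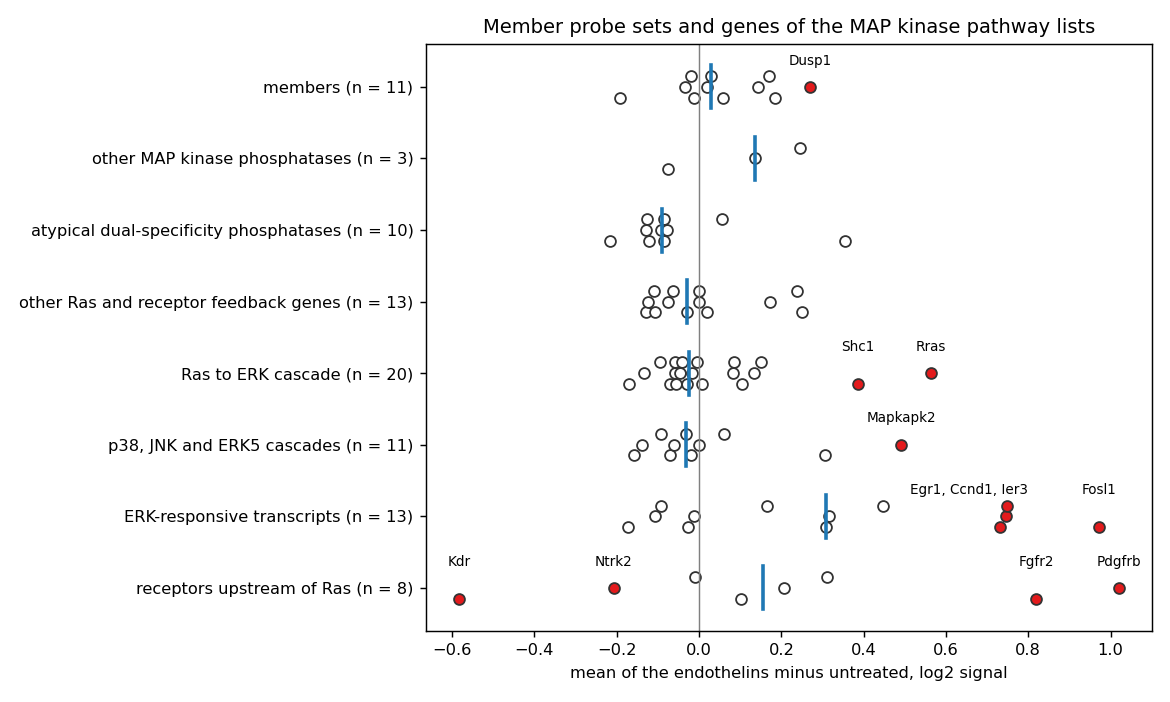
Mean of the endothelins minus untreated (horizontal axis, log2 MAS5 signal) for the 11 tested member probe sets and for the tested genes of 7 lists of the MAP kinase pathway, 1 point each, with the list's median as a vertical bar. Filled points passed an adjusted p of 0.05, and Dusp1 at 0.27 is the one filled point among the members.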

How the data were processed

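The authors deposited linear MAS5 signal intensities, MAS5 being named in the submitters' processing notes; no version or scaling is given in the sources used. Symbols came from the platform annotation, in which 20826 of 31042 probe sets had 1 symbol, 436 several and 9780 none. Log2 intensities were fitted with limma 3.58.1 in R 4.3.3 over probe sets at or above the median (signal 147). The fit had 4 group means, replicate number as a block, eBayes with intensity trend and 6 residual degrees of freedom. It was also run on simulated data, where the only condition set was that it return, on average, the differences put in. That run is no test of the calls. The block was chosen because the gene set is defined for comparison by replicate number. Nothing says whether numbers mark separate litters. With the block, p-values measure only the spread left between these arrays once differences between replicate numbers are removed. The members and all lists were chosen with earlier results of these data known. In each list up to 4 genes were named: those called in most comparisons with untreated, then by smallest unadjusted p in the mean; a gene's brightest probe set stood for it. Likeness was ranked over tested probe sets of non-members, 3 genes a member. Alternatives were no block, median centring, quantile normalization, a pseudocount of 32, no filter, an upper quartile filter, no intensity trend, only the compared groups, and leaving out each array or replicate number. Array medians ran from signal 136 to 181; the number of arrays limits precision. Promoters are RefSeq's, assembly GRCr8.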

Additional observations from a re-analysis of the deposited data

How the results depend on the processing

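Dusp1 1368146_at kept its upward direction in each comparison with untreated under each of the 23 alternatives. In the fit with no replicate block, 0 members were called with ET-2, ET-3 or the mean of the endothelins; the pairing of arrays by replicate number is thus needed for each call. Median centring also gave 0 with ET-2 and 0 with ET-3, and 2 in the mean (Dusp1 and Rasa1 1370085_at). No intensity trend and only the compared groups gave 0 with ET-2 and 0 with ET-3, and no filter gave 0 with ET-2. With ET-1, quantile normalization and the upper quartile filter each gave 1, which was Dusp1. Leaving out arrays or replicate numbers gave 0 to 1 called member with ET-1, ET-2, ET-3 and the mean, and 0 in pairs of endothelins. The causes were not tested. Dusp1 was called in 3 of 23 alternatives with ET-1, 5 with ET-2, 11 with ET-3 and 18 of 22 in the mean. Of 74 member results not called, 39 changed sign under at least 1 alternative, so no direction is claimed for them. Under the same alternatives, chosen for the list genes after seeing the data, the 27 calls of list genes kept their sign in each fit and held in 4 to 21 of them, and 2 held in each fit that left out arrays (Rras and Fgfr2 in the mean). The array medians were 0.02, 0.10 and 0.05 (log2) higher with ET-1, ET-2 and ET-3 than untreated. Over all probe sets, median centring gave 150 higher and 33 lower calls with ET-1, 193 and 1025 with ET-2, 228 and 218 with ET-3, and 426 and 1066 in the mean, in place of 234 and 34, 199 and 50, 331 and 79, and 549 and 209.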
